A study of Mus musculus with 17 samples.

Results

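The genes described here encode the subunits of the mitochondrial respiratory chain and of ATP synthase, in bone marrow macrophages (BMMs) and in the pre-osteoclasts (preOCs) grown from them. Members were taken by gene symbol: the families Nduf, Sdh, Uqcr, Cyc1, Cox4 to Cox8 and Atp5 from the nuclear genome, and mt-Nd, mt-Co, mt-Cytb and mt-Atp from the mitochondrial genome, without symbols of pseudogenes. The rule gave 102 of the 41388 genes counted. Of these, 89 are nuclear encoded (38 for complex I, 4 for complex II, 9 for complex III, 21 for complex IV and 17 for complex V) and 13 are mitochondrially encoded (7 for complex I, 1 for complex III, 3 for complex IV and 2 for complex V). Ndufa4 and Ndufa4l2 carry a complex I name but were put with complex IV, where the Ndufa4 protein sits. The symbols also took in Cox7a2l, a factor of supercomplexes, Atp5s, which is no subunit of the enzyme, and 4 genes that the annotation calls processed pseudogenes (Ndufa11b, Ndufb4c, Ndufs6b and Cox6c2). No read was counted for 2 members.

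RNA-seq counts of 17 mouse libraries were used. Bap1flox mice carry loxP-flanked alleles of Bap1, a deubiquitinase gene, and served as the controls without Cre. Bap1ΔLysM mice carry the same alleles with LysM-Cre, a Cre inserted at the lysozyme gene Lyz2, which acts in myeloid cells including neutrophils and macrophages and not in osteoclast precursors alone. BMMs were grown in M-CSF, the growth factor of macrophages, and preOCs were BMMs that also received RANKL, the osteoclast differentiation factor, at 100 ng/ml for 24 h. The mice of the preOC libraries were males of 20 weeks. The age and sex behind the BMM libraries are not given in the sources used here. There were 3 libraries of Bap1flox BMMs, 3 of Bap1ΔLysM BMMs, 6 of Bap1flox preOCs and 5 of Bap1ΔLysM preOCs (replicates 1, 2, 4, 5 and 6). The sample titles have 1 form throughout, but the names of the deposited files do not: those of preOC replicates 4 to 6 are joined by hyphens and start their own numbering again at 1, unlike those of replicates 1 to 3 and of the BMMs. On that basis replicates 4 to 6 were treated as another library set, and BMMs exist in replicates 1 to 3 only. The study describes the preOC samples as biologically independent. For the BMM libraries the sources used here do not say whether each came from a mouse of its own, so p-values measure the spread between these libraries.

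The respiratory chain passes electrons from NADH (complex I) and succinate (complex II) over ubiquinone to complex III, from there over cytochrome c to complex IV and oxygen, and the proton gradient that builds up drives ATP synthase (complex V). Most subunits are encoded in the nucleus and imported, while a small core is encoded in mitochondrial DNA, transcribed there as long polycistronic RNAs and cut out of them. Complex II has no mitochondrially encoded subunit. Osteoclasts are rich in mitochondria, and the nuclear respiratory genes are known targets of the transcription factors NRF1, GABP, YY1, ERR and CREB and of the PGC-1 coactivators.

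The libraries held 37967542 to 61369441 counted reads. Osteoclast markers summed to 231 to 352 CPM (reads of a gene scaled to all counted reads of its library) in BMMs and 5920 to 17600 in preOCs, and macrophage markers to 8790 to 11700 and 4020 to 5570. Markers of B and plasma cells summed to 2.11 to 10.3 CPM, those of erythroid cells and of T and NK cells to under 1. Stromal markers ran from 115 to 2970 CPM. The Bap1 gene had 82.1 to 84.4 CPM in Bap1flox BMMs, 74.8 to 77.1 in Bap1ΔLysM BMMs, 70.3 to 97.1 in Bap1flox preOCs and 55.9 to 87.7 in Bap1ΔLysM preOCs, and counts over the whole gene do not single out the deleted exons. Lyz2, which the Cre insertion disrupts, differed among the Bap1ΔLysM libraries. It lay at 80.3% to 144% of the Bap1flox mean of the same cells in the Bap1flox libraries and at 0.146% to 0.436% in the Bap1ΔLysM libraries, apart from 2 libraries of replicate 1. The study's methods give these mice as heterozygous for LysM-Cre, which would leave an intact Lyz2 allele, and the values near 0 go against that. The BMM library labelled Bap1ΔLysM replicate 1 had 42.8% and the preOC library labelled Bap1ΔLysM replicate 1 had 75.1%. That preOC library also had the lowest osteoclast marker sum of all preOCs (5920 CPM against 12800 to 17600 in the other Bap1ΔLysM preOCs). Its same-numbered Bap1flox partner had the lowest sum of the Bap1flox preOCs, 7180 CPM against 10300 to 14400. Total counts of members called in the comparisons that contain this library are given with and without it. Counts by complex are given only with it, and for the interaction the median is given without it.

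Promoters of the nuclear members are shown because most of these genes moved together with RANKL (each runs from 250 bases before to 50 after the start, from RefSeq on GRCm38.p6). Of the 89 nuclear members 66 had a promoter in that table. Letters of 5 motifs were searched on both strands: GCGCANGCG for NRF1, CCGGAAG for ETS factors such as GABP, AAGATGGC for YY1, TCAAGGTCA for ERR and TGACGTCA for CREB. The ETS and YY1 letters can share the bases AAG, and a match is a description of the letters, not of binding. Shown are the promoters of Sdhd and Atp5g3, the members with ERR letters, 1 promoter each with ETS letters alone (Ndufb6), YY1 letters alone (Ndufc1) and CREB letters alone (Uqcrfs1), and that of Atp5g1, which held none. Capitals mark the motifs. Sdhd lies at chr9:50603800-50604099, Atp5g3 at chr2:73911277-73911576, Ndufb6 at chr4:40279372-40279671, Ndufc1 at chr3:51408906-51409205, Uqcrfs1 at chr13:30545267-30545566 and Atp5g1 at chr11:96075582-96075881, all on the minus strand and written 5′ to 3′ along the gene.
Sdhd: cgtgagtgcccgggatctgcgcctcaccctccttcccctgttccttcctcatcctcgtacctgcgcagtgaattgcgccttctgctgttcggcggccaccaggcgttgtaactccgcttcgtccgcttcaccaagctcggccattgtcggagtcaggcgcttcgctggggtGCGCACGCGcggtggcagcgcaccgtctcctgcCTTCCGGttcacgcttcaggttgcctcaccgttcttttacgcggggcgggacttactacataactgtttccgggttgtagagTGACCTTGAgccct
Atp5g3: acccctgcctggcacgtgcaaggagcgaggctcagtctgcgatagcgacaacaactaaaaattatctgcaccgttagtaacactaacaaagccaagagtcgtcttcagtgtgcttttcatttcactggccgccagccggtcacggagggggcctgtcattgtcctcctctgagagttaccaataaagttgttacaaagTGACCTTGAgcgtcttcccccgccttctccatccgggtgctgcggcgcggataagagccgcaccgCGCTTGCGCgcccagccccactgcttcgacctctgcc
Ndufb6: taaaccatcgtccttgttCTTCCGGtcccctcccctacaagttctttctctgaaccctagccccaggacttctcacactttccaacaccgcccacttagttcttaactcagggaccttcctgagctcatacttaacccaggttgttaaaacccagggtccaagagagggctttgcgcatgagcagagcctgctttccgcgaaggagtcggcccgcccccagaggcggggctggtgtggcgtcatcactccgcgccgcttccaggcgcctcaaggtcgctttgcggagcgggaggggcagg
Ndufc1: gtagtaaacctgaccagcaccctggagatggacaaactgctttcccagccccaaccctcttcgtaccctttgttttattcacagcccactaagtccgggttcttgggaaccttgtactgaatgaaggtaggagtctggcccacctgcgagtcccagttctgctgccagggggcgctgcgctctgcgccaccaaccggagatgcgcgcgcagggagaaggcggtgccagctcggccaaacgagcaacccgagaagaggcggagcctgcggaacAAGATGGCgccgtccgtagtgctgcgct
Uqcrfs1: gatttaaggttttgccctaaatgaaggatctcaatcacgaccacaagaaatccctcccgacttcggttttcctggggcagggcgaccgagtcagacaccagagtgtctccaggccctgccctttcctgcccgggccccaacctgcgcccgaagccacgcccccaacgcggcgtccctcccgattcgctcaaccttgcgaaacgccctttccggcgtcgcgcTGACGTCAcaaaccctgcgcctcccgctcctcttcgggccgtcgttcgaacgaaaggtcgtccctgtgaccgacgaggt
Atp5g1: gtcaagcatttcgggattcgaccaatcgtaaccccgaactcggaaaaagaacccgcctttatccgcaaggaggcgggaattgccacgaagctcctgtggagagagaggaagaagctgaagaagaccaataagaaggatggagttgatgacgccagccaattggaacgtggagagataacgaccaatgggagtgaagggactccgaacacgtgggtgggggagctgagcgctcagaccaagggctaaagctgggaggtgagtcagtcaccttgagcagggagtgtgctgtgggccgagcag

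The Sdhd promoter held NRF1 letters at -79 to -71, ETS letters at -46 to -40 and ERR letters at 37 to 45 from the start. In the Atp5g3 promoter the ERR letters lay at -52 to -44 and the NRF1 letters at 14 to 22. ETS letters lay at -232 to -226 in Ndufb6, YY1 letters at 23 to 30 in Ndufc1 and CREB letters at -29 to -22 in Uqcrfs1. Over the 66 members, NRF1 letters occurred in 20 (30.3%, against 6.25% of all 32851 promoters in the table), ETS letters in 16 (24.2% against 8.86%) and YY1 letters in 9 (13.6% against 2.75%). ERR letters occurred in 2 members (3.03% against 0.423%) and CREB letters in 4 (6.06% against 1.79%). At least 1 of the 5 motifs stood in 40 members (60.6%, against 17.6% of all promoters). These shares were not compared at equal base composition.

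Nuclear encoded members rose with RANKL in Bap1flox cells in all 5 complexes, while none of the mitochondrially encoded members passed the test. Summed over the nuclear members, the share of counted reads was 0.594%, 0.669% and 0.638% in the BMM replicates 1 to 3 and 1.25%, 1.38% and 1.34% in the preOC replicates 1 to 3. Every preOC library thus lay above every BMM library, and the mean share was 2.09-fold higher. The mitochondrially encoded members summed to 0.949%, 0.461% and 0.6% in BMMs and to 0.627%, 0.45% and 0.962% in preOCs. These ranges overlapped, and the mean share was 1.01-fold that of BMMs. By complex, the nuclear share was higher in preOCs by 1.77-fold for complex I, 1.97-fold for complex II, 2.54-fold for complex III, 1.79-fold for complex IV and 2.4-fold for complex V. All 10 osteoclast markers were called higher and all 8 macrophage markers lower in the same comparison, and in bulk RNA fewer cells of a type and less RNA per cell cannot be told apart.

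**Figure D1:**
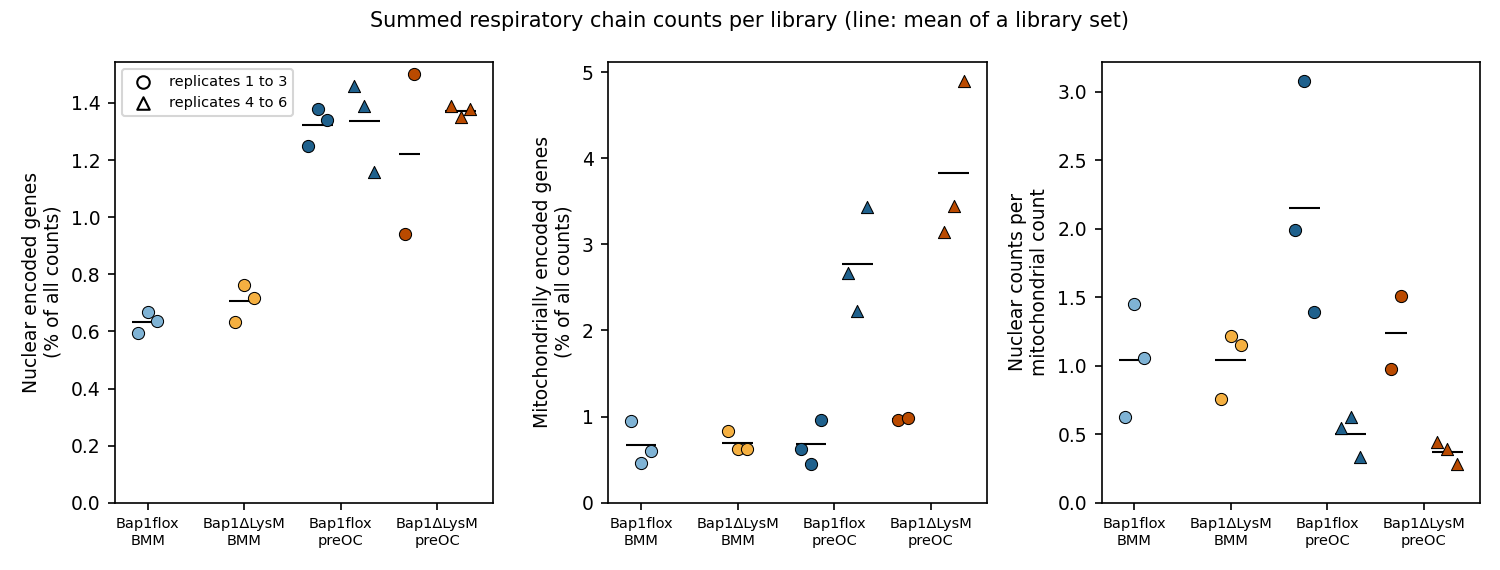
Summed respiratory chain counts of each library: nuclear members as a percentage of counted reads, mitochondrially encoded members as a percentage, and the ratio of the nuclear to the mitochondrial sum, in the 4 groups, with points for libraries and lines for the mean of a library set. Nuclear sums were 0.594% to 0.764% in BMMs and 0.94% to 1.5% in preOCs, whereas mitochondrial sums spread from 0.45% to 4.9% and were highest in preOC replicates 4 to 6.

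Of the 89 nuclear members, 81 passed the filter on low counts (a CPM above 1 in at least 2 of 6 libraries). Genes were tested with edgeR's quasi-likelihood test, with p adjusted over all genes tested by the Benjamini-Hochberg method and a threshold of 0.05. With RANKL in Bap1flox cells, 72 of the 81 were called higher, against 31.7% of all genes tested, and 1 was called lower, against 32.9%. The median log2 fold change of the 81 was 0.81, against -0.05 over all genes tested. Of the members tested, 77 had preOC libraries that all lay above all BMM libraries in CPM, against 44.3% of all genes. Fitted changes are relative to TMM scaling factors. On the plain CPM scale the median of all genes was 0.15, and that of the nuclear members 1.01, so that ratios of the CPM values below exceed the fitted folds.

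Complex I, which oxidises NADH, had 31 of 36 tested members called higher and none lower (median log2 fold change 0.73). The largest change was that of Ndufa12, an accessory subunit, with 23.6, 30.7 and 27.8 CPM in BMMs and 72.1, 71.6 and 69.4 CPM in preOCs. Its preOC libraries lay far above the BMM libraries and close to each other (log2 fold change 1.19). Ndufv1, which binds the flavin that takes electrons from NADH, went from 57.7, 63.5 and 56.9 CPM to 126, 151 and 146 CPM (log2 fold change 1.05 ± 0.078 SE, adjusted p = 4.3e-05). Ndufb6, in the membrane arm, had a log2 fold change of 1.17 and Ndufv2, a partner of Ndufv1 in the NADH-binding module, of 1.06. The 5 members not called were Ndufb2 (0.41), Ndufa1 (0.15), Ndufa7 (0.11), Ndufb11 (0.03) and Ndufv3 (-0.00364). The small Ndufv3 subunit had 58.0 to 59.1 CPM in BMMs and 63.6 to 71.4 CPM in preOCs, ranges that did not overlap in CPM but gave no difference after scaling.

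All 4 genes of complex II, which oxidises succinate and is also an enzyme of the citric acid cycle, were called higher (median 0.80). The flavoprotein Sdha had 233, 239 and 233 CPM in BMMs and 398, 489 and 486 CPM in preOCs (log2 fold change 0.77 ± 0.081 SE, adjusted p = 0.00019). The iron-sulfur subunit Sdhb had a log2 fold change of 0.84 ± 0.069 SE and an adjusted p of 6.8e-05. The membrane anchor Sdhd, whose promoter is shown above, had 85.1, 86.6 and 87.0 CPM in BMMs and 177, 199 and 193 CPM in preOCs (log2 fold change 0.94 ± 0.056 SE, adjusted p = 1.8e-05). The other anchor, Sdhc, had the smallest change of the complex (0.64 ± 0.085 SE, adjusted p = 0.00054). In each of these genes the preOC libraries all lay above the BMM libraries.

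Complex III, which hands electrons from ubiquinol to cytochrome c, had all 9 nuclear members called higher (median 1.06). Cyc1, the heme-bearing cytochrome c1 (chr15:76343523-76345934, plus strand), changed most of all members. It had 60.6, 69.0 and 67.7 CPM in BMMs and 274, 331 and 332 CPM in preOCs. The lowest preOC library was thus far above the highest BMM library, and the fitted fold was 4.15 (log2 fold change 2.05 ± 0.09 SE, adjusted p = 7.5e-06). The small subunit Uqcr10 had a log2 fold change of 1.25, the core subunit Uqcrc2 of 1.21, the Rieske iron-sulfur protein Uqcrfs1 of 1.12 and the hinge protein Uqcrh of 0.55. Uqcrfs1 had 57.3, 63.2 and 62.6 CPM in BMMs and 140, 162 and 152 CPM in preOCs.

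In complex IV, which reduces oxygen, 12 of 15 tested members were called higher and 1 lower (median 0.71). Cox7b had 39.2, 42.6 and 36.9 CPM in BMMs and 96.9, 104 and 98.1 CPM in preOCs (log2 fold change 1.14 ± 0.069 SE, adjusted p = 1.9e-05). Cox4i1, a regulatory subunit, had the smallest change of the main isoforms, from 210, 235 and 232 CPM to 355, 380 and 367 CPM (log2 fold change 0.51 ± 0.061 SE, adjusted p = 0.00033). The groups did not overlap in either gene. The member called lower was Cox6b2, the isoform known from testis, at 1.37, 0.874 and 1.5 CPM in BMMs and 0.804, 0.698 and 0.374 CPM in preOCs (log2 fold change -1.19), a change between levels near the filter. Cox7a1 and Cox7a2l were not called (0.26 and -0.03).

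Of the isoform families of complex IV, the isoforms that many tissues share were the ones with counts. Per kilobase, in Bap1flox preOCs, Cox4i1 had 251 ± 26 CPM per kb (SD, n = 6) and its lung isoform Cox4i2 0.14 ± 0.138, and Cox6a1 had 406 ± 62.2 and the muscle isoform Cox6a2 0.517 ± 0.325. Cox7a2 had 137 ± 5.58 CPM per kb, Cox7a2l 179 ± 14.5 and the muscle isoform Cox7a1 10.6 ± 1.87. Across the 17 libraries, in CPM per gene, Cox4i1 had 194 to 447 CPM and Cox4i2 at most 0.618 CPM. Cox6a1 had 150 to 328 CPM and Cox6a2 0.176 to 1.21 CPM, and Cox6b1 had 109 to 269 CPM and Cox6b2 0.232 to 1.5 CPM. Cox7a2 had 44.9 to 127 CPM, Cox7a1 1.91 to 6.77 CPM and Cox7a2l 126 to 242 CPM. Cox8a had 164 to 380 CPM, while Cox8b was counted in 1 library only (0.0388 CPM) and Cox8c in none. Ndufa4 had 50.4 to 132 CPM and its paralogue Ndufa4l2 at most 0.634 CPM. The shared isoforms changed with RANKL in Bap1flox cells by log2 0.71 (Cox6a1), 0.72 (Cox6b1), 1.01 (Cox7a2), 0.64 (Cox8a) and 0.91 (Ndufa4), all called.

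ATP synthase had 16 of 17 tested members called higher (median 0.91), the exception being Atp5s (-0.36). The catalytic subunit Atp5b (chr10:128083273-128090391, plus strand) had 435, 522 and 490 CPM in BMMs and 1340, 1520 and 1530 CPM in preOCs (log2 fold change 1.41 ± 0.084 SE, adjusted p = 1.9e-05). Subunit c, the proton-carrying ring, is made from 3 genes that encode the same mature protein with different import signals. Atp5g1 (chr11:96068852-96075670, minus strand) had 44.6, 58.5 and 53.3 CPM in BMMs and 184, 204 and 196 CPM in preOCs (log2 fold change 1.71 ± 0.1 SE, adjusted p = 1.8e-05). Atp5g3 (chr2:73908447-73911326, minus strand) had 87.3, 102 and 93.5 CPM in BMMs and 288, 313 and 309 CPM in preOCs (1.49 ± 0.071 SE, adjusted p = 9.1e-06). Atp5g2 (chr15:102662864-102672352, minus strand) had 86.9, 99.8 and 96.5 CPM in BMMs and 130, 134 and 128 CPM in preOCs, and its log2 fold change was 0.28. All 3 genes were called, with non-overlapping groups, and Atp5g2 had the smallest change. Atp5o, in the stalk that links both parts of the enzyme, had a log2 fold change of 1.30.

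Most members rose with RANKL whether or not their promoters held the letters. With RANKL in Bap1flox cells the median log2 fold change was 0.76 over the 40 members that held a motif, 39 of which were called higher, and of the 26 without any, 24 were tested, with a median of 0.86 and 17 called higher. Medians by motif were 0.82 for NRF1 letters, 0.69 for ETS letters, 0.82 for YY1 letters and 0.77 for CREB letters. Sdhd and Atp5g3 with their ERR letters had 0.94 and 1.49, and Atp5g1 without any motif had 1.71.

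**Figure D2:**
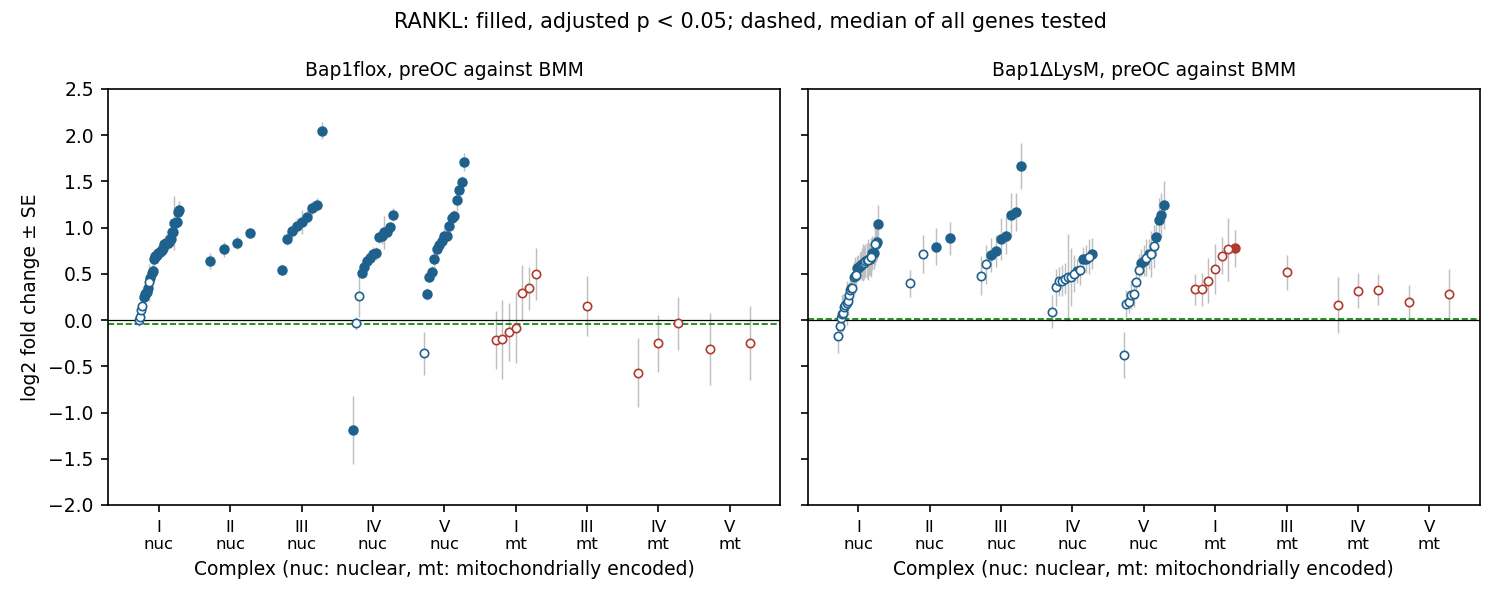
Log2 fold change ± SE of each tested member, preOC against BMM, by complex and genome, in Bap1flox (left) and Bap1ΔLysM (right), with filled points at an adjusted p under 0.05 and a dashed line at the median of all genes tested. In Bap1flox nearly all nuclear members lie above the line (72 of 81 called higher) and the mitochondrially encoded members scatter around it (0 of 13 called); in Bap1ΔLysM 31 of 79 nuclear members and 1 mitochondrially encoded member were called higher.

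Of the 13 mitochondrially encoded members, 0 were called with RANKL in Bap1flox cells by edgeR's quasi-likelihood test, and 0 had an unadjusted p under 0.05, against 68% of all genes in either direction. The voomWithQualityWeights test of limma called 1. Their median log2 fold change was -0.13 with 4 of 13 above 0, against -0.05 over all genes. On the plain CPM scale it was 0.06 with 7 of 13 above 0, against 0.15 over all genes, so that it lay slightly below the median of all genes on either scale, and its sign followed the scaling as theirs did. mt-Co1, the catalytic subunit of complex IV (mitochondrial genome, bases 5328 to 6872), had 4560, 2130 and 2810 CPM in BMMs and 2280, 1550 and 3490 CPM in preOCs (log2 fold change -0.57 ± 0.37 SE, adjusted p = 0.21). mt-Nd1, a membrane subunit of complex I (bases 2751 to 3707), had 812, 489 and 627 CPM in BMMs and 966, 713 and 1430 CPM in preOCs (0.50 ± 0.28 SE, adjusted p = 0.16). mt-Cytb, the cytochrome b of complex III (bases 14145 to 15288), had a log2 fold change of 0.15 ± 0.32 SE. The libraries of both groups overlapped in all 3 genes, and the SEs were several times those of the nuclear members.

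The level per kilobase of gene differed widely among the mitochondrially encoded genes. In Bap1flox BMMs mt-Co1 had 2050 ± 812 CPM per kb (SD, n = 3), mt-Cytb 872 ± 303, mt-Nd1 671 ± 169, mt-Nd5 417 ± 214, mt-Nd6 413 ± 145, mt-Nd2 379 ± 107 and mt-Nd4 297 ± 99.6. In that order each neighbouring pair from mt-Nd5 to mt-Nd4 differed by less than the SD of either gene, and mt-Cytb and mt-Nd1 differed by less than the SD of mt-Cytb but by more than that of mt-Nd1. The other 6 genes had far fewer reads: mt-Co2 63.5 ± 21.8, mt-Atp6 46.1 ± 21.2, mt-Atp8 34.6 ± 14.9, mt-Co3 32.2 ± 11.1, mt-Nd4l 23.5 ± 9.83 and mt-Nd3 5.31 ± 1.3. Among the nuclear members the highest were Cox8a with 336 ± 35.4 CPM per kb, Cox6a1 with 239 ± 23.2, Cox6b1 with 236 ± 18.6 and Cox5b with 184 ± 15.2.

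Only uniquely aligned reads were counted, and parts of mitochondrial DNA have copies in the nuclear genome. Of the windows of 150 bases in mt-Co3, 99.8% occur letter for letter in an annotated transcript outside the mitochondrial genome, and the share was 99.4% for mt-Co2 and for mt-Atp6, 98.0% for mt-Nd4l, 97.0% for mt-Nd3, 59.2% for mt-Nd4 and 23.6% for mt-Co1. It was 0% for mt-Nd1, mt-Nd2, mt-Nd5, mt-Nd6, mt-Cytb and mt-Atp8. For the genes from mt-Co2 to mt-Nd4 the copies are the unprocessed pseudogenes Gm28439, Gm10222, Gm28438, Gm28437, Gm10925 and Gm28661, which lie in this order between bases 24611535 and 24615565 of chromosome 1. Windows of mt-Co2 also occur in Gm13341, and those of mt-Co1 occur in Gm29216. The 5 genes above 90% are those with the lowest levels next to mt-Atp8, and their values are uncertain. mt-Atp8, the shortest at 204 bases, shares 43 bases with mt-Atp6, and mt-Nd6 lies on the other strand and shares 14 bases with mt-Nd5. Whether counting used the strand was not stated. Of the nuclear members, 21 overlap exons of another gene, 19 of them on the opposite strand.

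**Figure D3:**
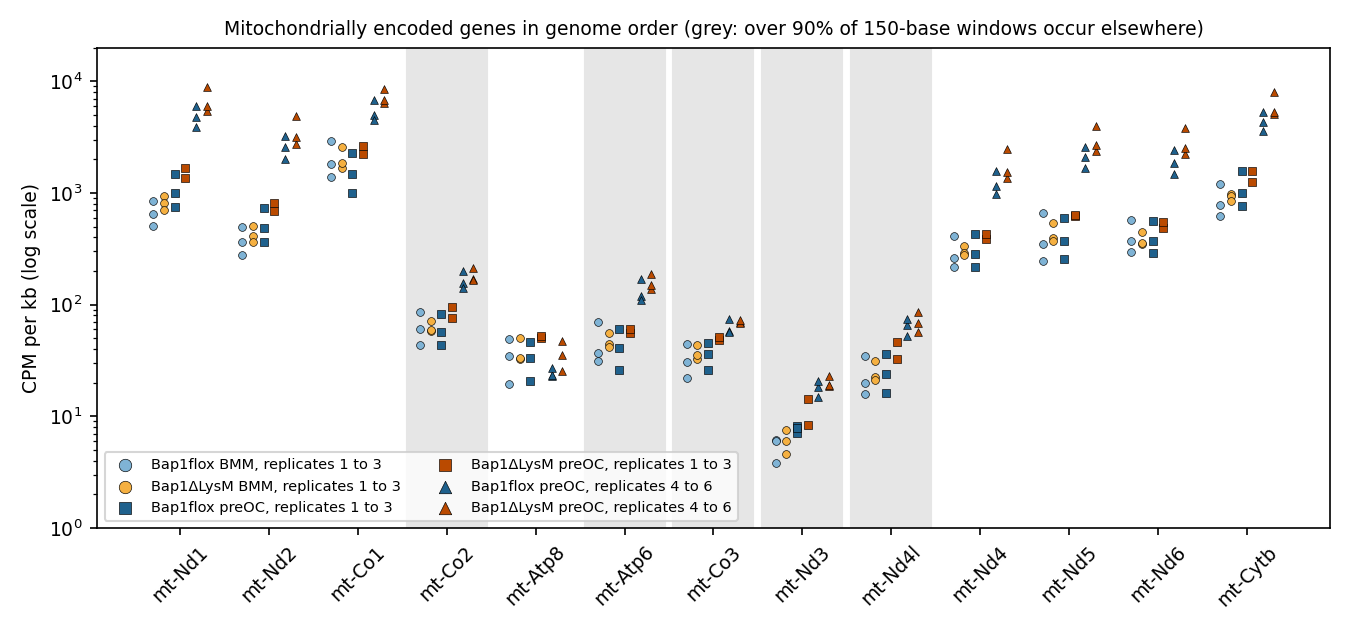
Level of the 13 mitochondrially encoded members in genome order, as CPM per kb of gene on a log axis, with a symbol for each library by group and library set and grey bands for the 5 genes of which over 90% of windows of 150 bases occur elsewhere. Genes in grey bands and mt-Atp8 sit far below the others in every group, and triangles (preOC replicates 4 to 6) lie above the other symbols in all genes but mt-Atp8.

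In Bap1ΔLysM cells 31 of 79 nuclear members tested were called higher with RANKL, in a comparison of 3 BMM libraries with 2 preOC libraries, and that count depended on the libraries used. Their summed share was 0.634%, 0.764% and 0.718% in BMMs and 0.94% and 1.5% in preOC replicates 1 and 2, a fold of 1.73 (2.13 without the preOC library of replicate 1). Both preOC libraries lay above all BMM libraries. The 31 calls stood against 11.4% of all genes called higher, and 0 were called lower, against 8.2%, with a median log2 fold change of 0.60 (all genes 0.01). By complex, 11 of 35 members of complex I, 2 of 4 of complex II, 7 of 9 of complex III, 4 of 14 of complex IV and 7 of 17 of complex V were called. These counts include the preOC library of replicate 1 and are not given without it. Groups did not overlap for 63 of the 79, against 33.6% of all genes. Without the preOC library of replicate 1, 58 of 79 were called higher, against 13.1% of all genes, with a median of 0.81. That fit sets the 3 BMM libraries against a single preOC library, which is assumed to vary as the BMM libraries do. The same holds for every value of RANKL in Bap1ΔLysM cells that leaves out a preOC library, and such calls have no replicate check in preOCs. Leaving out another library lowered the count. It was 1 without the BMM library of replicate 1 (5.2% of all genes), 0 without that of replicate 2 (0.373%) or replicate 3 (0.888%), and 2 without the preOC library of replicate 2 (2.39%).

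Cyc1 again led, with 83.5, 95.3 and 84.9 CPM in Bap1ΔLysM BMMs and 205 and 400 CPM in the preOCs (log2 fold change 1.67 ± 0.25 SE, adjusted p = 0.014). Both preOC values lay above all BMM values, and they differed from each other by more than the lower of them differed from the BMMs. Atp5g1 had 59.1, 85.7 and 67.6 CPM in BMMs and 125 and 239 CPM in preOCs (1.25 ± 0.26 SE, adjusted p = 0.028). Atp5b had a log2 fold change of 1.08 ± 0.24 SE and Uqcrc2 of 1.17 ± 0.21 SE. Without the preOC library of replicate 1 the log2 fold changes were 2.04 for Cyc1, 1.61 for Atp5g1, 1.37 for Atp5b and 1.49 for Uqcrc2. Atp5g2 was not called (0.18 ± 0.15 SE, adjusted p = 0.44).

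Among the mitochondrially encoded members, 1 was called higher in Bap1ΔLysM cells, mt-Nd1, with 894, 785 and 680 CPM in BMMs and 1310 and 1590 CPM in preOCs (log2 fold change 0.78 ± 0.2 SE, adjusted p = 0.047). Its groups did not overlap, but the call was lost under the voom test, with RLE scaling factors and with the replicate block. It was also lost on leaving out any 1 library other than preOC replicate 1. All 13 had a log2 fold change above 0 (median 0.33), and in 11 of 13 both preOC libraries lay above all BMM libraries in CPM, against the 33.6% of all genes given above. The summed mitochondrial share was 0.696% ± 0.121 (SD, n = 3), at most 0.836%, in BMMs and 0.965% and 0.989% in preOCs, a fold of 1.4 (1.42 without the preOC library of replicate 1). With the single preOC library of replicate 2 the median was 0.39 with 12 of 13 above 0, and mt-Nd1 was called (0.87 ± 0.23 SE, adjusted p = 0.046).

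The interaction term asked whether RANKL changed the genes differently in the 2 genotypes, within replicates 1 to 3. For the nuclear members 0 of 81 were called in either direction, as for all genes (0% higher and 0% lower), and 13 had an unadjusted p under 0.05, against 12.6% of all genes. The DESeq2 test called 0 of the members as well. The median interaction of the nuclear members was -0.20 on the log2 scale, with 8 of 81 above 0, against 0.04 for all genes, and that of the mitochondrially encoded members was 0.49 with 0 called and 0 at an unadjusted p under 0.05. Without the preOC library labelled Bap1ΔLysM replicate 1 the nuclear median was -0.00934, and without that of replicate 2 it was -0.46 with 6 members called lower, against 0.111% of all genes. Each of these fits has 1 library of Bap1ΔLysM preOCs, which is assumed to vary as the other groups do. Since the term called none of all genes tested, it could not decide whether the lower number of members called in Bap1ΔLysM marks a different response.

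Other genes of the pathway were described by lists. Their counts in Bap1flox cells stand against 31.7% of all genes called higher and 32.9% lower, and those in Bap1ΔLysM cells against 11.4% higher and 8.2% lower, or 13.1% in each direction without the preOC library of replicate 1. In Bap1flox cells, RANKL raised 28 of 47 tested assembly factors, with 3 called lower (median log2 fold change 0.54). Ndufaf4, an assembly factor of complex I, had 4.85, 5.14 and 6.14 CPM in BMMs and 25.6, 22.3 and 23.2 CPM in preOCs (log2 fold change 1.95). Ecsit, of complex I, had 1.67 and Lyrm7, of complex III, 1.48. Surf1, of complex IV, was lower, with 41, 39 and 37.3 CPM in BMMs and 26.8, 27.4 and 27.0 CPM in preOCs (-0.72 ± 0.066 SE, adjusted p = 1e-04), as were Tmem126b (-0.43) and Pet100 (-0.24). In Bap1ΔLysM cells 14 of 47 were called higher and 0 lower, and 17 of 46 and 0 with the single preOC library of replicate 2.

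Factors that replicate and transcribe mitochondrial DNA had 8 of 17 called higher and 1 lower in Bap1flox cells (median 0.32). Tfam, which packages and transcribes mitochondrial DNA, had 16.3, 15.9 and 16.7 CPM in BMMs and 27.8, 25.6 and 29.3 CPM in preOCs (log2 fold change 0.57 ± 0.084 SE, adjusted p = 9e-04). The helicase Twnk had 0.82 and the topoisomerase Top1mt 1.34, while Polg2, the accessory subunit of the polymerase, was lower (-1.09 ± 0.15 SE, adjusted p = 0.00065). Genes that process mitochondrial RNA had 14 of 17 called higher and none lower (median 0.78). Hsd17b10 and Trmt10c, subunits of the RNase P that cuts mitochondrial transcripts, had log2 fold changes of 1.86 and 1.49, and Tbrg4, a FASTK family protein, of 1.53. Hsd17b10 had 23.0, 26.9 and 24.8 CPM in BMMs and 98.8, 108 and 102 CPM in preOCs. In Bap1ΔLysM cells 1 of 16 genes of the DNA list (Twnk, 1.02) and 9 of 17 of the RNA list were called higher. These counts were 5 of 16 (Twnk, 1.31) and 9 of 17 with the single preOC library of replicate 2.

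Of the regulators of nuclear respiratory genes, 4 of 11 tested were called higher in Bap1flox cells, a share close to that of all genes, and 1 lower. Ppargc1b, the coactivator PGC-1β, had 3.23, 4.15 and 3.71 CPM in BMMs and 48.4, 70.1 and 68.6 CPM in preOCs, which did not overlap by a wide margin (log2 fold change 3.88 ± 0.17 SE, adjusted p = 7.5e-06). The related Perm1 had 2.07 and Pprc1 1.39, and the nuclear receptor Esrra had 0.55 ± 0.071 SE. Nrf1 (0.11 ± 0.066 SE, adjusted p = 0.2) and Gabpa (0.11 ± 0.079 SE, adjusted p = 0.26) were not called, and Creb1 was lower (-0.34). Ppargc1a, which encodes PGC-1α, had at most 0.219 CPM in any library and was not tested. In Bap1ΔLysM cells Ppargc1b (3.79 ± 0.37 SE, adjusted p = 0.0067), Perm1 (2.35), Pprc1 (0.98) and Tfec (0.83) were called. With the preOC library of replicate 1 left out, which leaves a single preOC library, 5 of 11 were called, and these genes had 4.28, 2.67, 1.04 and 0.94.

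Genes of the electron carriers between the complexes were the last list. Of 15 tested genes of cytochrome c and ubiquinone synthesis, 11 were called higher and 2 lower in Bap1flox cells (median 0.60). Cycs, cytochrome c, had 14.6, 21.7 and 17.6 CPM in BMMs and 104, 100 and 98.0 CPM in preOCs (log2 fold change 2.30 ± 0.14 SE, adjusted p = 2e-05). Coq8a, a kinase-like protein of ubiquinone synthesis, had 13.7, 10.1 and 12.6 CPM in BMMs and 99.2, 198 and 220 CPM in preOCs (3.63 ± 0.31 SE), while its paralogue Coq8b was lower (-0.67 ± 0.08 SE, adjusted p = 0.00033). In Bap1ΔLysM cells 7 were called higher, among them Coq8a (4.71), Cycs (1.58) and Coq3 (1.05), and 1 lower (Coq8b, -0.81). Coq8a had 62.8 and 292 CPM in the preOC replicates 1 and 2, against 4.48 to 9.13 CPM in BMMs, and it was not called when the BMM library of replicate 2 or 3 was left out. When the preOC library of replicate 1 was left out, again with a single preOC library remaining, 8 genes of the list were called higher and 1 lower, with 5.42 for Coq8a, 1.80 for Cycs, 1.28 for Coq3 and -0.81 for Coq8b. These lists were chosen with earlier results of the same libraries known and are no independent evidence.

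**Figure D4:**
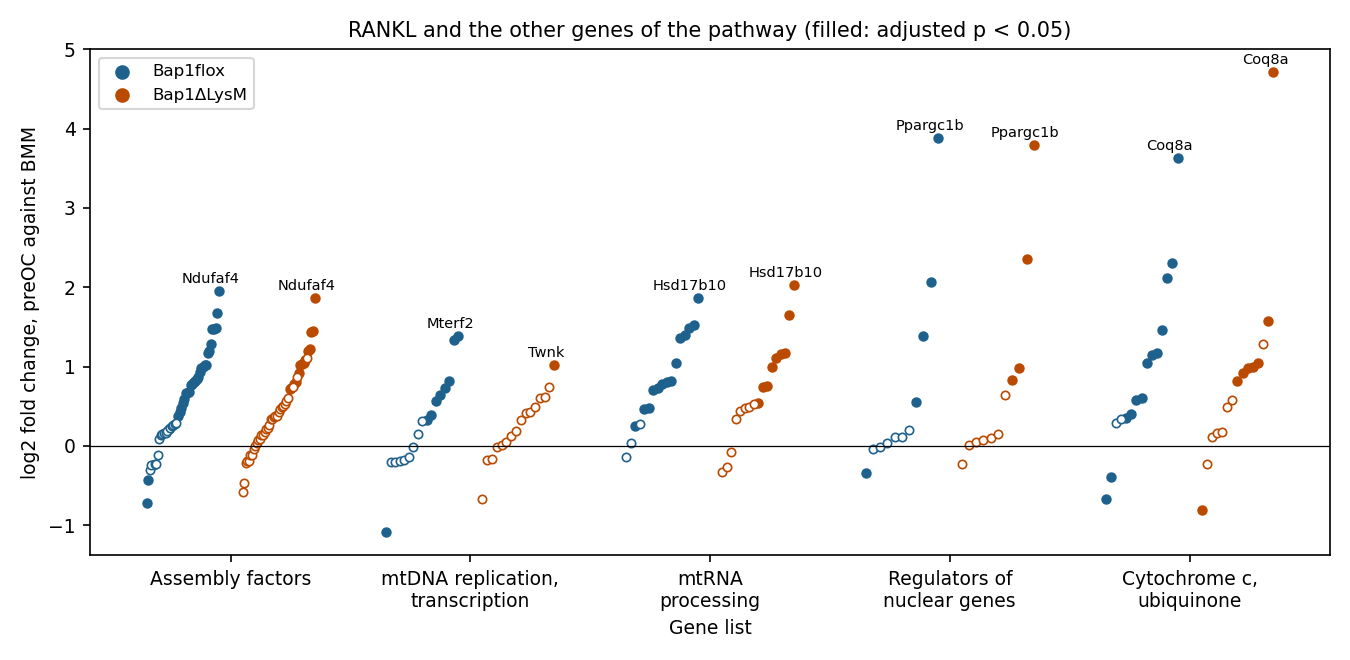
Log2 fold change with RANKL, preOC against BMM, of each tested gene of 5 lists (assembly factors, mitochondrial DNA, mitochondrial RNA, regulators, cytochrome c and ubiquinone), with Bap1flox in blue and Bap1ΔLysM in orange, filled points at an adjusted p under 0.05 and the top gene of each list named. Coq8a (3.63 and 4.71) and Ppargc1b (3.88 and 3.79) stand highest, and most genes of the RNA list lie above 0 in both genotypes.

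In BMMs, nuclear members were slightly higher in Bap1ΔLysM than in Bap1flox libraries, and few passed the test. Their summed share was 1.11-fold that of Bap1flox, and it was higher in each of the 3 same-numbered pairs, by 1.07-fold, 1.14-fold and 1.13-fold. Of 80 members tested 3 were called higher, against 1.31% of all genes, and 0 lower, against 4.01%. An unadjusted p under 0.05 was found for 25 of 80, against 26.2% of all genes. The median log2 fold change was 0.17, with 68 of 80 above 0, and groups did not overlap for 21 members with Bap1ΔLysM higher, against 13.6% of all genes. With the replicate number as a block, 11 were called higher, against 5.47% of all genes. Leaving out any library but Bap1ΔLysM replicate 3 left 0 called, including the library of replicate 1 with Lyz2 at 42.8% (0.478% of all genes), and without replicate 3 the count stayed at 3 (2.07% of all genes). Stromal markers summed to 560, 2620 and 2970 CPM in Bap1flox and 403, 1110 and 1380 CPM in Bap1ΔLysM BMMs, and their part in these differences was not tested.

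The 3 genes called belong to complexes III and IV. Cox7b had 39.2, 42.6 and 36.9 CPM in Bap1flox and 52.8, 57.2 and 52.1 CPM in Bap1ΔLysM BMMs (log2 fold change 0.47 ± 0.082 SE, adjusted p = 0.032). Cyc1 had 60.6, 69.0 and 67.7 CPM against 83.5, 95.3 and 84.9 CPM (0.44 ± 0.079 SE, adjusted p = 0.034). Cox7a2, a small subunit like Cox7b, had 45.6, 46.3 and 44.9 CPM against 55.2, 65.7 and 59.0 CPM (0.41 ± 0.072 SE, adjusted p = 0.032). Groups did not overlap in any of them. The block added Atp5g1 (0.45), Atp5b (0.39), Atp5j2, Atp5g3, Ndufb6, Ndufa4, Ndufa11 and Uqcrb. Cox6b2 had the lowest log2 fold change (-1.13 ± 0.41 SE, adjusted p = 0.14), with overlapping groups. The 13 mitochondrially encoded members gave 0 calls and 0 at an unadjusted p under 0.05 (median 0.10), and 0 calls by DESeq2. Of the lists, Tbrg4 (0.43 ± 0.092 SE, adjusted p = 0.049) and Hccs, the enzyme that attaches heme to cytochrome c and c1, were called higher. Hccs had 15.4, 16 and 13.6 CPM in Bap1flox and 33.9, 39.8 and 31.9 CPM in Bap1ΔLysM BMMs (1.25 ± 0.11 SE, adjusted p = 0.01).

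In preOCs, the mitochondrially encoded members had higher mean levels in Bap1ΔLysM, but edgeR's test called none of them in the plain comparison and 4 when a term for the library set was added. With the replicate number as a block, 11 of 13 were called higher, against 16.1% of all genes. That count was 9 without the library labelled Bap1ΔLysM replicate 1, again against 16.1%. The plain comparison of 6 with 5 libraries called 0 of 79 nuclear members, against 7.12% of all genes higher and 8.67% lower, with 0 at an unadjusted p under 0.05, against 30.4% of all genes. Without the preOC library labelled Bap1ΔLysM replicate 1, 7 nuclear members were called higher, against 10.6% of all genes, and 0 of 13 mitochondrially encoded members, with 0 at an unadjusted p under 0.05, against 37.5% of all genes. With all 11 libraries it called 0 of 13 mitochondrially encoded members, with 1 at an unadjusted p under 0.05 and DESeq2 calling 1. The median log2 fold change was 0.02 for the nuclear and 0.66 for the mitochondrially encoded members, all 13 of which lay above 0. With upper-quartile scaling the calls over all genes shifted from 920 higher and 1120 lower to 696 higher and 1402 lower.

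**Figure D5:**
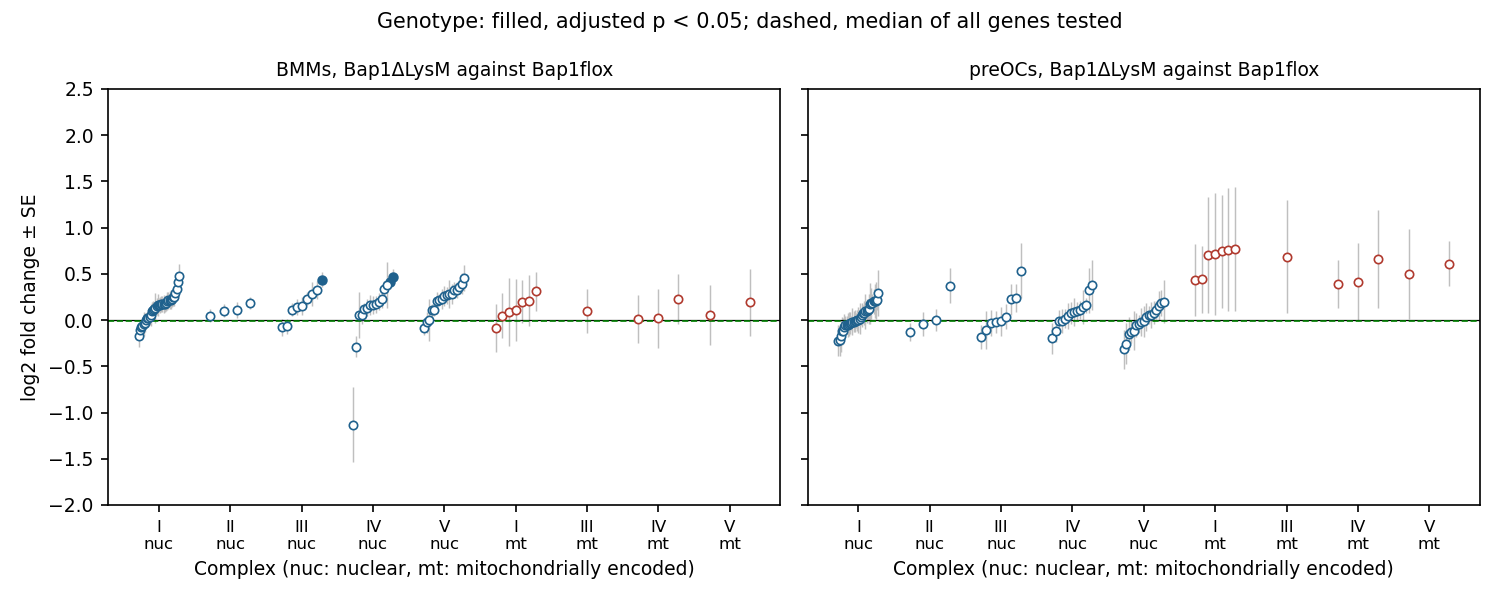
Log2 fold change ± SE of each tested member, Bap1ΔLysM against Bap1flox, by complex and genome, in BMMs (left) and preOCs (right), with filled points at an adjusted p under 0.05 and a dashed line at the median of all genes tested. Nuclear members lie near 0 in preOCs (median 0.02) and mostly above 0 in BMMs (68 of 80), and the mitochondrially encoded members of preOCs lie at 0.39 to 0.77 with wide SEs.

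The spread behind those SEs followed the library set. The mitochondrial share was 0.627%, 0.45% and 0.962% in the Bap1flox preOC replicates 1 to 3 and 2.67%, 2.23% and 3.43% in replicates 4 to 6. In Bap1ΔLysM preOCs it was 0.965% and 0.989% in replicates 1 and 2 and 3.14%, 3.44% and 4.9% in replicates 4 to 6. In both genotypes replicates 4 to 6 lay above all libraries of replicates 1 to 3, with mean shares 4.09-fold and 3.92-fold higher. The Bap1ΔLysM fold was 3.87 without the library of replicate 1. The share of reads on ribosomal RNA genes split the same way: it was 0.0319% to 0.0876% in preOC replicates 1 to 3 and 0.137% to 0.359% in replicates 4 to 6, and its part in the mitochondrial difference was not tested. Between the same sets nuclear shares were 1.01-fold and 1.13-fold (0.915-fold in Bap1ΔLysM without the library of replicate 1). With genotype as a term, 12 of 13 mitochondrially encoded members were higher in replicates 4 to 6, against 25.5% of all genes, with a median log2 difference of 1.76, while mt-Atp8 had -0.40 ± 0.2 SE. Nuclear members moved in both directions, with 30 of 79 higher and 11 lower, the latter against 28.1% of all genes. Without the library labelled Bap1ΔLysM replicate 1 the counts were 12 of 13, and 27 and 22 of 79, against 27.7% of all genes higher and 28.7% lower. Uqcrb (0.94), Ndufs5 (0.79) and Cox6c (0.75) had the largest rise and Atp5k (-0.68), Atp5e (-0.68) and Ndufa2 (-0.52) the largest fall.

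Within each library set the mitochondrial share was higher in the mean of Bap1ΔLysM preOCs, by 1.44-fold in replicates 1 to 3 and 1.38-fold in replicates 4 to 6. Against the Bap1flox library of the same number it was 1.54-fold, 2.2-fold, 1.18-fold, 1.54-fold and 1.43-fold in replicates 1, 2, 4, 5 and 6. By gene, mt-Co3 and mt-Nd4l were higher in 4 of these 5 comparisons and the other mitochondrially encoded members in all 5. Both Bap1ΔLysM libraries of the first set lay above the 3 Bap1flox libraries, the nearest values being 0.965% and 0.962%, while the groups of the second set overlapped. The share of ribosomal RNA genes was 0.0319% to 0.0595% in Bap1flox and 0.0574% and 0.0876% in Bap1ΔLysM preOCs of replicates 1 to 3. In replicates 4 to 6 it was 0.137% to 0.209% in Bap1flox and 0.246% to 0.359% in Bap1ΔLysM, without overlap, and its part in the mitochondrial difference was not tested. The nuclear share was 0.922-fold and 1.03-fold in the 2 sets.

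With the library set as a term, 4 mitochondrially encoded members and 1 nuclear member (Ndufs3, 0.24 ± 0.086 SE, adjusted p = 0.049) were called higher, against 16.6% of all genes, and none lower, against 17.1%. The median log2 fold change was 0.53 for the mitochondrially encoded members, with all 13 above 0. mt-Co1 had 2280, 1550, 3490, 7780, 6920 and 10600 CPM in Bap1flox replicates 1 to 6 and 4100, 3450, 9790, 10600 and 13200 CPM in Bap1ΔLysM replicates 1, 2, 4, 5 and 6 (0.58 ± 0.2 SE, adjusted p = 0.047). Its genotypes overlapped within both sets. mt-Nd5, a membrane subunit of complex I, had 683, 468, 1100, 3850, 3030 and 4700 CPM in Bap1flox and 1140, 1160, 4380, 4890 and 7200 CPM in Bap1ΔLysM (0.62 ± 0.21 SE, adjusted p = 0.043). It overlapped in replicates 4 to 6 and, by a small margin, not in replicates 1 to 3. mt-Nd1 had 0.54 ± 0.19 SE (adjusted p = 0.049) and mt-Atp8, the small subunit of ATP synthase, 0.65 ± 0.2 SE (adjusted p = 0.031). The other 9 had log2 fold changes of 0.36 to 0.55 and adjusted p values of 0.057 to 0.14 in edgeR's test. Without the library labelled Bap1ΔLysM replicate 1 this fit called 3 mitochondrially encoded members (mt-Nd1, mt-Nd3 and mt-Atp8) and 19 nuclear members higher, against 18.5% of all genes, and none lower, against 20.6%. Of these 3, mt-Nd1 and mt-Atp8 were called with and without that library, while mt-Co1 and mt-Nd5 were not called without it.

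Other ways to treat the sets gave smaller or larger counts. Within replicates 1 to 3 alone, 0 members of either kind were called higher, as for all genes (0%), and 0 had an unadjusted p under 0.05, against 17.7% of all genes; the medians were -0.07 (nuclear) and 0.56 (mitochondrial). Without the library of Bap1ΔLysM replicate 1, which leaves a single Bap1ΔLysM library that is assumed to vary like the others, 0 members were called, against 1.02% of all genes higher, and 17 nuclear and 1 mitochondrially encoded member had an unadjusted p under 0.05, against 28.8% of all genes (medians 0.14 and 0.62). Within replicates 4 to 6, 7 of 79 nuclear members were called higher, against 14.6% of all genes, and 0 mitochondrially encoded members, 7 of which had an unadjusted p under 0.05, against 44.7% of all genes (medians 0.08 and 0.52). The 7 nuclear members were Uqcrb (0.57), Sdha (0.39), Uqcrh (0.39), Cox6c (0.38), Ndufb4 (0.30), Ndufc2 (0.28) and Ndufa1 (0.27). The voomWithQualityWeights test, which the study names, called 12 mitochondrially encoded members and 22 nuclear members higher, against 26.8% of all genes, and 6 nuclear members lower, against 28.1%. Without the library labelled Bap1ΔLysM replicate 1 it called 12, 30 and 7, against 28.6% of all genes higher and 30.1% lower. Neutrophil markers also differed between these groups, with 66.8 to 182 CPM summed in Bap1flox and 166 to 582 CPM in Bap1ΔLysM preOCs and 6 of 7 called higher (7 of 7 without that library), and their part in the mitochondrial difference was not tested.

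Among the lists, the plain comparison of genotypes in preOCs called 0 genes higher and 3 lower of 47 assembly factors, 0 and 1 of 18 DNA genes, 0 and 0 of 17 RNA genes, 0 and 0 of 11 regulators and 1 and 1 of 15 carriers, against 7.12% of all genes higher and 8.67% lower. The carriers' gene Hccs was again higher, with 38.7, 37.7, 36.8, 44.3, 35.4 and 32.4 CPM in Bap1flox and 57.9, 94.6, 72.0, 70.3 and 78.2 CPM in Bap1ΔLysM preOCs, without overlap (log2 fold change 1.06 ± 0.11 SE, adjusted p = 0.00035). The complex I assembly factors Ndufaf2 (-0.71 ± 0.14 SE, adjusted p = 0.0064) and Nubpl (-0.67 ± 0.2 SE, adjusted p = 0.04) and the complex IV factor Cmc2 (-0.41 ± 0.11 SE, adjusted p = 0.024) were lower, as were Coq4 of ubiquinone synthesis (-0.64 ± 0.16 SE, adjusted p = 0.018) and the DNA primase Primpol (-0.37 ± 0.11 SE, adjusted p = 0.038). Without the library labelled Bap1ΔLysM replicate 1 these 6 genes stayed called, with log2 fold changes of 1.13 for Hccs, -0.68 for Ndufaf2, -0.84 for Nubpl, -0.34 for Cmc2, -0.73 for Coq4 and -0.40 for Primpol. The lists then had 4 of 47 assembly factors, 1 of 18 DNA genes, 1 of 17 RNA genes, 3 of 11 regulators and 2 of 15 carriers higher, and 4, 1, 1, 0 and 2 lower, against 10.6% of all genes higher and 13.3% lower. With all libraries no regulator was called, with log2 fold changes of 0.02 for Ppargc1b, 0.05 for Esrra, 0.37 for Gabpa and 0.34 for Creb1.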

How the data were processed

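RNA was measured by poly-A selected sequencing with paired reads of 150 bases. The authors aligned reads with STAR 2.5.1a to GRCm38 with Ensembl release 76 and used featureCounts 1.4.6-p5 to count reads that aligned uniquely and without ambiguity to a gene. The deposited files hold raw counts, CPM and RPKM (CPM per kb of gene) of each library; the counts were tested, and CPM was recomputed over all counted reads of a library. Genes of ribosomal RNA (355, with 0.0319% to 0.359% of reads) stayed out of the tests.

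Counts were tested with edgeR 4.0.16 (R 4.3.3, TMM factors, quasi-likelihood test, Benjamini-Hochberg adjustment over all genes tested, threshold 0.05). The filter on low values kept genes that exceeded a CPM of 1 in 4 or more of the 11 libraries when preOCs were compared by genotype, and in 2 or more libraries otherwise. The study names voomWithQualityWeights (limma 3.58.1), which was run as an alternative, as was DESeq2 1.42.0, along with other scaling, filters, a replicate block, a library set term and leaving out each library. The script was tested on simulated data. Libraries held 37967542 to 61369441 counted reads, and precision was lowest for genes with few of them.

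Labels give the replicate numbers. After subtraction of the group means, libraries with the same number correlated at 0.36 to 0.54 in BMMs. Between BMMs and preOCs of Bap1flox the values were 0.24 to 0.37. The numbers were therefore taken to pair these libraries, but the main fits held no term for the pairs. Their p-values and calls are thus unpaired, and the replicate block was run as an alternative. In preOCs compared by genotype the numbers were not taken as pairs, and Bap1ΔLysM BMMs and preOCs share only 2 numbers. Whether the pairs share a mouse, litter or day is not given in the sources used here.

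Members and gene lists (assembly, mitochondrial DNA, mitochondrial RNA, regulators, carriers and cell type markers) were chosen with earlier results of these data known. Named were all 13 mitochondrially encoded members, up to 8 nuclear members with the largest called change in each direction and comparison, the Sdh genes, the isoform families, up to 3 called genes in each direction per list, and Ppargc1a, Ppargc1b, Tfam, Nrf1, Gabpa, Esrra and Cycs. Ndufv1, Ndufv3, Uqcrfs1, Uqcrh, members listed as not called, Atp5s, and the regulators and carriers beyond that rule were named after their values were seen.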

Additional observations from a re-analysis of the deposited data

Results flagged for a closer look

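In groups of 5 or 6 preOC libraries, 152 sets of values were checked for a single library far from the others, of which chance alone would mark about 1 in 20 (20 were marked, or 13.2%). The preOC library labelled Bap1ΔLysM replicate 1 was low in 9 of them. Its summed nuclear share was 0.94% (others 1.35% to 1.5%). It had 127 CPM of Atp5o (others 202 to 222), 248 of Cox4i1 (391 to 434), 158 of Cox6b1 (231 to 247), 76.1 of Cox7b (108 to 120), 89.4 of Ndufa4 (122 to 132) and 132 of Uqcrc2 (224 to 258). It also had 62.8 CPM of Coq8a (236 to 292) and 73.8 of Hsd17b10 (128 to 140). It is the library in which Lyz2 stood at 75.1% of the Bap1flox mean and osteoclast markers were lowest.

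Bap1ΔLysM preOC replicate 2 was high for Cyc1 with 400 CPM (others 168 to 224), Atp5g1 with 239 (108 to 140), Ndufv1 with 166 (95.3 to 115), Sdhd with 224 (133 to 155) and Tbrg4 with 120 (65.4 to 78.1). Bap1flox preOC replicate 6 was low for Atp5g3 with 205 CPM (others 276 to 313), Cox6a1 with 203 (281 to 321), Ndufa12 with 62.4 (69.1 to 72.1), Uqcr10 with 89.1 (119 to 134) and Nrf1 with 30.2 (34.9 to 37.1). Bap1ΔLysM preOC replicate 4 was high for Cox6a2, with 1.21 CPM (others at most 0.791).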

How the results depend on the processing

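No direction of a called value reversed in the alternatives run. Over 227 gene and comparison pairs named, 3762 alternative values kept their direction and side of the threshold in 3499 cases, lost the call in 170 and gained one in 93. The nuclear count for genotype in preOCs (0) was 28 by voom, 4 in a fit of all 17 libraries, 1 with a term for the library set, 7 in replicates 4 to 6 and 2 with the replicate block. The mitochondrial count (0) was 12, 1, 4, 0 and 11, and 1 by DESeq2. In BMMs the nuclear count (3) was 9 by voom, 17 by DESeq2, 8 in all 17 libraries and 11 with the block. With RANKL in Bap1flox the mitochondrial count (0) was 1 by voom. In Bap1ΔLysM the nuclear count (31) was 14 by voom and 64 in all 17 libraries, and the mitochondrial count (1) was 0 by voom, with RLE factors or with the block, 3 by DESeq2 and 2 without a filter or in all 17 libraries. The nuclear interaction count (0) was 2 in all 17 libraries. The replicate block gave 72 nuclear and 0 mitochondrial calls with RANKL in Bap1flox, 29 nuclear calls in Bap1ΔLysM and 0 for the interaction. No share of all genes under the block stands beside these counts, so they are not read as results about the members. In preOCs same-numbered libraries of both genotypes correlated at 0.39 to 0.73 after subtraction of the genotype means, but other numbers of the same library set did so at 0.24 to 0.68. After subtraction of the means by genotype and set, same numbers of replicates 1 to 3 correlated at 0.38 to 0.44, against -0.44 to 0.27 for other numbers. With 2 Bap1ΔLysM libraries in that set, their deviations mirror each other, which limits this check. In replicates 4 to 6 same numbers correlated at -0.14 to 0.059, against -0.26 to 0.35 for other numbers. For replicates 4 to 6 the block thus stands for the library set more than for pairs. Without Bap1ΔLysM replicate 1 the block called 11 of 79 nuclear members higher and 1 lower, and 9 of 13 mitochondrially encoded members higher. Of all genes, 16.1% were called higher and 18.1% lower in that fit. The causes were not tested.

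Leaving out each library gave nuclear counts of 0 to 7 and medians of -0.00522 to 0.101 for genotype in preOCs (mitochondrial 0 to 1, and 0.331 to 0.991; the count of 1 was without Bap1flox replicate 3), 0 to 3 and 0.117 to 0.214 in BMMs (mitochondrial 0, and -0.11 to 0.438), 70 to 74 and 0.793 to 0.855 with RANKL in Bap1flox (mitochondrial 0 to 1, and -0.425 to 0.309), 0 to 58 and 0.36 to 0.809 in Bap1ΔLysM (mitochondrial 0 to 1, and 0.243 to 0.555), and 0 to 6 and -0.455 to -0.00934 for the interaction (mitochondrial 0, and 0.146 to 0.822). With a preOC library of Bap1ΔLysM left out, the last 2 comparisons have 1 library in that arm, assumed to vary like the others. The share of all genes called also moved between these fits, so the ranges alone are no result about the members. For genotype in preOCs, 10.6% of all genes were called higher in the fit with 7 nuclear calls. With RANKL in Bap1ΔLysM, the share called higher was 5.2%, 0.373% and 0.888% without BMM replicates 1, 2 and 3.

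Over all genes, calls (higher and lower) for genotype in preOCs were 920 and 1120, against 3462 and 3631 by voom, 1513 and 1393 by DESeq2, 2249 and 2104 in all 17 libraries and 2076 and 2157 with the block. In BMMs they were 171 and 522, against 721 and 1051, 880 and 1185, 1001 and 990, and 712 and 1395. With RANKL in Bap1ΔLysM they were 1484 and 1066, against 996 and 671 by voom, 2059 and 1937 by DESeq2 and 3595 and 3220 in all 17 libraries. For the interaction they were 0 and 0, against 63 and 50 by DESeq2 and 705 and 738 in all 17 libraries. The comparison of library sets, the check of numbers within sets, the fits of preOCs without Bap1ΔLysM replicate 1 that keep a block, a set term, voom or replicates 1 to 3, and the plain CPM scale were added after seeing the data.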
